A study of Mus musculus with 5 samples.

Results

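Profilins, cofilins and the other proteins that hold actin monomers were examined through 10 genes: Pfn1, Pfn2, Cfl1, Cfl2, Dstn, Tmsb4x, Tmsb10, Twf1, Cap1 and Cap2. Members were named by gene family, and each was read from the probe set that carried exactly 1 gene symbol and had the highest mean over all 5 arrays. All 10 had a single such probe set, out of 22180 genes with at least 1. The hearts came from male mice of C57BL/6 background aged 12 weeks. The Akita group (replicates 1 and 3) carries a mutation in the Insulin 2 gene, Ins2, and is labelled a type 1 diabetic model, with Ins2 given as +/-. The wild type group (replicates 3, 4 and 5) shares the background. Total RNA, 150 ng per sample, was hybridised to whole-transcript arrays, and the deposited values are log2 signals, so a difference of 1 is a 2-fold change. The labels do not say whether each sample was a separate animal, so p-values measure only the spread between these samples, which may be technical.

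Actin cycles between single subunits (monomers) and filaments. Cofilins and destrin sever and strip old filaments, cyclase-associated proteins help to remove and recharge the released subunits, profilins hand ATP-bound subunits to growing ends, and beta-thymosins hold a reserve of subunits out of the cycle. In heart muscle this machinery keeps the thin filaments of the sarcomere at length, while in the vessel, connective tissue and immune cells of the heart it drives shape change and movement. Cfl2, Cap2 and Pfn2 are the forms tied to muscle or nerve, whereas Pfn1, Cfl1, Tmsb4x and Cap1 are made by most cell types.

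The array medians over all probe sets ran from 4.60 to 4.71 in Akita and from 4.53 to 4.62 in wild type. The difference between the groups was fitted across all 15528 genes above the filter on dim signals with limma, and p-values were adjusted by Benjamini-Hochberg over all of them. All 10 members passed this filter, whose bound was a mean log2 signal of 4.06. Over the tested genes the array medians were 6.175 and 6.33 in Akita replicates 1 and 3, and 6.30 to 6.37 in wild type. Heart muscle genes were bright in both groups: the summed linear signal of 10 cardiomyocyte markers was 58217 to 58726 in Akita and 59758 to 62157 in wild type hearts.

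Pfn1 was the member that changed. Profilin 1 is the widely expressed profilin, which binds actin monomers and the proline-rich stretches of formins and Ena/VASP proteins. Its log2 signal was 9.35 and 9.27 in the Akita hearts, against 10.36, 10.17 and 10.25 in the wild type hearts. The highest Akita array lay 0.82 log2 units under the lowest wild type array, a gap wider than the range of 0.19 within wild type. Pfn1 fell to 9.31 ± 0.06 in Akita (SD, n = 2), against 10.26 ± 0.10 in wild type (SD, n = 3), a log2 difference of -0.95 (SE 0.11, 95% interval -1.22 to -0.68, limma adjusted p = 0.0285). This is 0.518 times the wild type signal. It was the member called, 1 of 10, where 0.328% of all genes tested were called in either direction and 0.116% as lower. The set was proposed with this fall known, so the share among the members is a description and adds no support. In bulk tissue, fewer cells of a type and less RNA per cell cannot be told apart.

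The direction and size of the Pfn1 difference did not rest on 1 array, but its call did not outlast the loss of any: with each array left out in turn the difference ran from -0.995 to -0.90 and the limma adjusted p from 0.0682 to 0.183. Array weights gave adjusted p = 0.0546, centring on the tested genes 0.0791 and an unmoderated model 0.252.

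Pfn2, the profilin most abundant in nerve cells, showed no such difference. It stood at 6.77 in both Akita hearts and at 6.79, 6.85 and 6.73 in the wild type hearts, so both Akita values lay inside the wild type range. The log2 difference was -0.02 (SE 0.11, 95% interval -0.27 to 0.23, adjusted p = 0.955). The start-site upstream sequences of the 2 profilin genes are shown because the pair differed in this comparison. They are the 250 bases before the RefSeq start in build GRCm38.p6, 5′ to 3′ on the minus strand, at chr11:70654651-70654900 for Pfn1 and chr3:57847758-57848007 for Pfn2. Capitals mark GGGCGG, the core of the GC box, searched on both strands with overlapping matches allowed.
Pfn1: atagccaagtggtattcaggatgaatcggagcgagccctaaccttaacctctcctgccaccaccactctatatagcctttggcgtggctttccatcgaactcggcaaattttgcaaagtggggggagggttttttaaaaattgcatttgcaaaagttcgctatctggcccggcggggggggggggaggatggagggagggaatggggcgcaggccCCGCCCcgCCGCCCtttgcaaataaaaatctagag
Pfn2: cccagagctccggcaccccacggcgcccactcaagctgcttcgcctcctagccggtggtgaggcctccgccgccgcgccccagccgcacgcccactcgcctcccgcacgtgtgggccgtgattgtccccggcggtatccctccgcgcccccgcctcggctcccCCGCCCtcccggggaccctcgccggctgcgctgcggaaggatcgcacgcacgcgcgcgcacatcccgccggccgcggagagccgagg
The Pfn1 stretch holds 2 such matches and is 54.4% G and C, while the Pfn2 stretch holds 1 and is 78.0% G and C. Among the members, 7 of 10 have at least 1 match in an upstream stretch of this length, against 57.9% of the 12042 tested genes with a promoter in the table and 32.7% of all 32851 promoters. The CArG box, the element bound by serum response factor, was looked for on both strands and found in 0 of the 10 members' stretches, against 1.43% of the tested genes with a promoter. For so rare an element, 0 of 10 does not set the members apart. A match or its absence is a property of these letters and says nothing about binding.

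**Figure D1:**
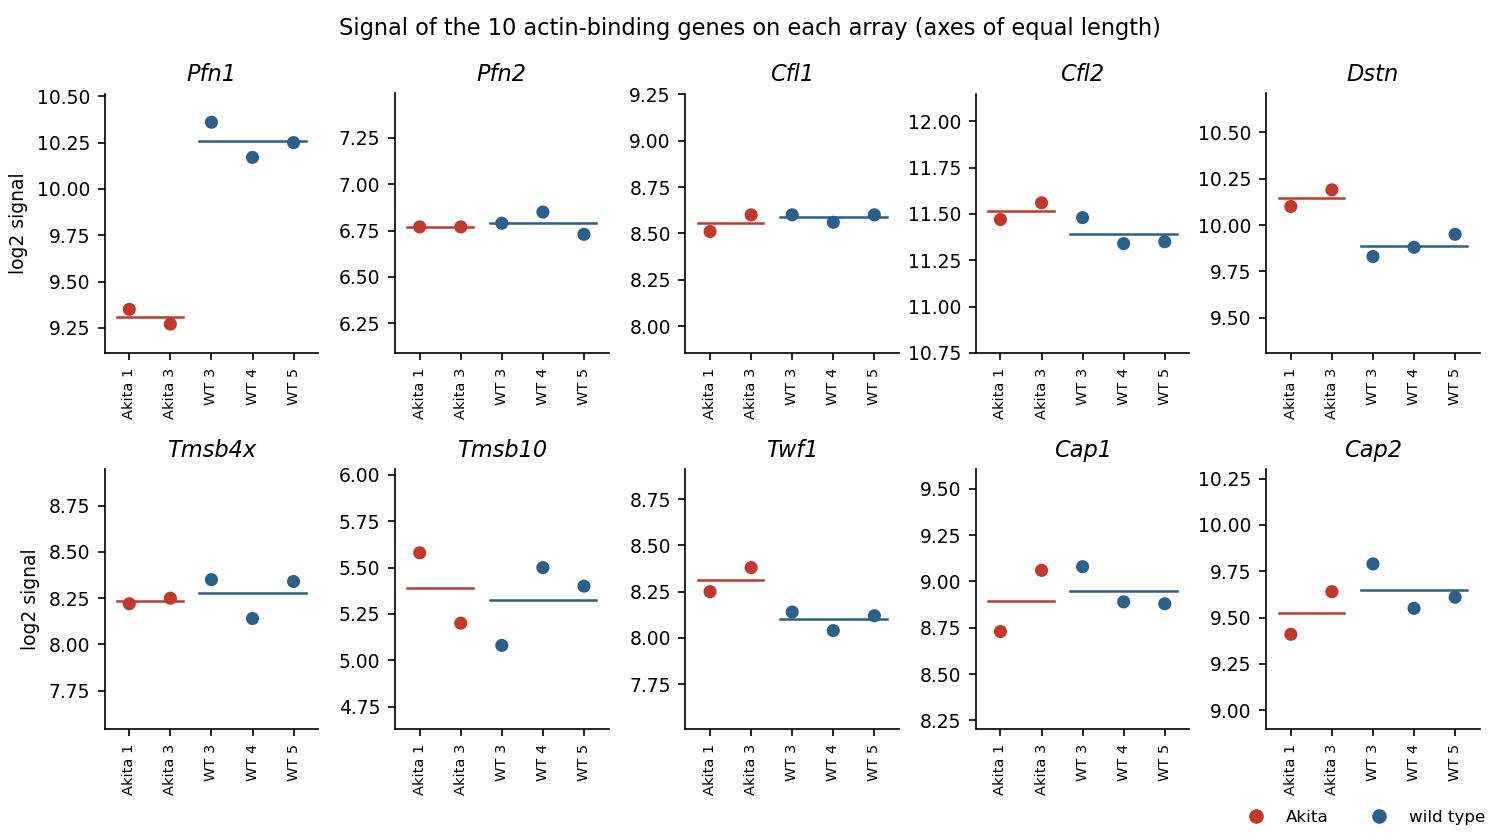
Log2 signal of each member on the 5 arrays, with Akita arrays in red on the left and wild type arrays in blue on the right. Points are arrays, lines are group means and every vertical axis spans the same number of log2 units. Pfn1 shows the gap of 0.82 between the groups, while the Akita points of Dstn and Twf1 lie slightly above the wild type points.

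The cofilin family, which takes filaments apart, had 0 of 3 genes called. Cfl1, the cofilin of non-muscle cells, measured 8.51 and 8.60 in Akita against 8.60, 8.56 and 8.60 in wild type, and the 2 groups overlapped. Its log2 difference was -0.03 (SE 0.11, 95% interval -0.28 to 0.21, adjusted p = 0.927). Cfl2, the muscle cofilin needed to keep sarcomeric thin filaments in order, measured 11.47 and 11.56 in Akita against 11.48, 11.34 and 11.35 in wild type. Akita replicate 1 lay just inside the wild type range and replicate 3 above it, with a log2 difference of 0.13 (SE 0.11, adjusted p = 0.667).

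Dstn encodes destrin, also called actin-depolymerising factor, the third member of this family. It measured 10.10 and 10.19 in Akita hearts, against 9.83, 9.88 and 9.95 in wild type hearts, so both Akita arrays lay above all wild type arrays by at least 0.15. The log2 difference of 0.26 (SE 0.11, 95% interval 0.00 to 0.51) had an unadjusted p of 0.0471 and did not pass after adjustment over all genes (limma adjusted p = 0.361).

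The beta-thymosins, small peptides that each sequester an actin monomer, did not pass. Tmsb4x, the X-linked gene of thymosin beta-4, stood at 8.22 and 8.25 in Akita against 8.35, 8.14 and 8.34 in wild type, and the Akita values fell within the wild type range. Its log2 difference was -0.04 (SE 0.12, 95% interval -0.32 to 0.23, adjusted p = 0.913). Tmsb10, the related thymosin beta-10, was dim and the least steady member, at 5.58 and 5.20 in Akita against 5.08, 5.50 and 5.40 in wild type. The 2 Akita arrays lay 0.38 apart and the wild type arrays spanned 0.42, which covers the log2 difference of 0.06 (SE 0.17, adjusted p = 0.910).

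Twf1, the gene of twinfilin 1, which binds monomers and caps filament ends, measured 8.25 and 8.38 in Akita hearts against 8.14, 8.04 and 8.12 in wild type hearts. The groups did not overlap, with 0.11 between the nearest arrays. The log2 difference was 0.22 (SE 0.11, 95% interval -0.04 to 0.47, adjusted p = 0.447) and did not pass.

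The cyclase-associated proteins recharge actin monomers after cofilin has released them. Cap1, the widely expressed form, measured 8.73 and 9.06 in Akita against 9.08, 8.89 and 8.88 in wild type, and Akita replicate 1 was the lowest of the 5 arrays. The log2 difference was -0.06 (SE 0.14, adjusted p = 0.903). Cap2, the form enriched in striated muscle, measured 9.41 and 9.64 in Akita against 9.79, 9.55 and 9.61 in wild type, with a log2 difference of -0.13 (SE 0.13, adjusted p = 0.719). Again Akita replicate 1 was lowest and wild type replicate 3 highest. The Cap2 difference was -0.01 without Akita replicate 1, -0.24 without Akita replicate 3 and -0.055 without wild type replicate 3.

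Across the 10 members, 6 lay lower and 4 higher in Akita, and the median log2 difference was -0.03, against -0.03 over all 15528 genes tested. The groups did not overlap in 3 members (Pfn1 lower, Dstn and Twf1 higher), where 29.7% of all genes tested had groups that did not overlap, 19.9% lower and 9.89% higher. An unadjusted p under 0.05 was found in 2 members, where 13.6% of all genes had one. Both shares lie near those over all genes. The differences of the 9 members other than Pfn1 ran from -0.13 to 0.26, and their 95% intervals from -0.43 to 0.51, all above the upper end of the interval of Pfn1 at -0.68. A p that misses the threshold does not show that these 9 were equal between the groups.

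**Figure D2:**
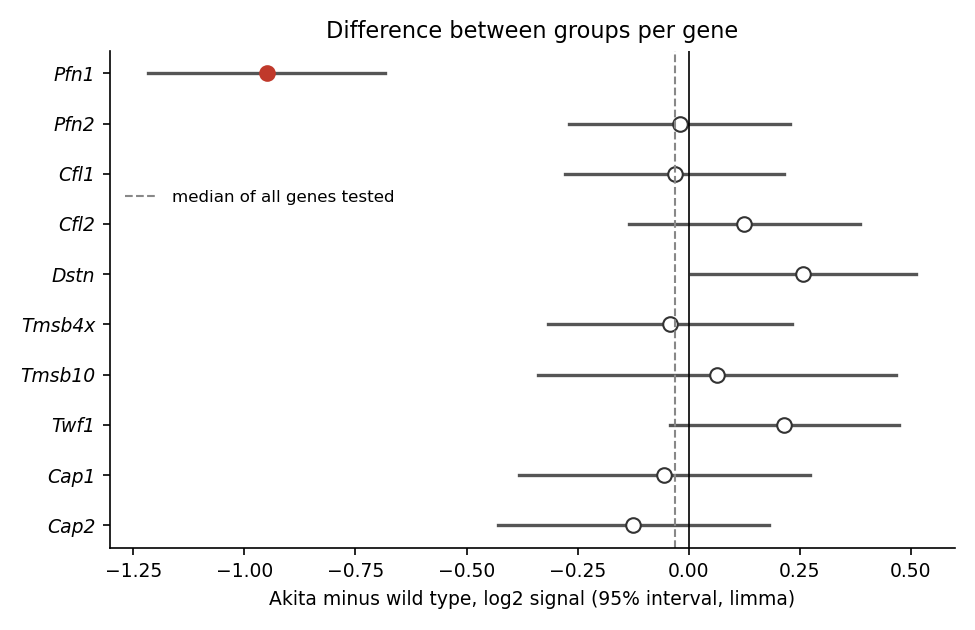
Akita minus wild type difference in log2 signal for each member, with its 95% interval from limma. The filled point marks the member with an adjusted p under 0.05 (Pfn1, -0.95), open points did not pass, and the dashed line is the median of all genes tested at -0.03.

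Related genes were then set against each other within each array, which asks whether 2 family members changed unequally. Of 5 pairs compared by an exact two-sided permutation test over the 5 arrays, none could go below p = 0.2, the smallest value of this test, which doubles the one-sided p, with 3 against 2 arrays. The Pfn1 minus Pfn2 difference was 2.58 and 2.50 in Akita, against 3.57, 3.32 and 3.52 in wild type, a shift of -0.93 (exact permutation p = 0.2, 0.333 adjusted over the 5 pairs). The lower value appeared in 2 of 2 Akita arrays. Because Pfn2 alone differed by -0.02, this shift restates the fall of Pfn1 and adds no support.

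Destrin against non-muscle cofilin also gave the smallest p of this test, as does any pair whose groups do not overlap. Cfl1 minus Dstn was -1.59 in both Akita hearts, against -1.23, -1.32 and -1.35 in wild type hearts, a shift of -0.29 (exact permutation p = 0.2, adjusted 0.333). Cfl1 minus Cfl2 was -2.96 in both Akita hearts against -2.88, -2.78 and -2.75 in wild type hearts, a shift of -0.16 with the same p-values. In both pairs the Akita arrays lay under all wild type arrays. Because Cfl1 alone differed by -0.03, these shifts mostly restate the differences of Dstn (0.26) and Cfl2 (0.13) and add no support. Among all single genes tested, 19.9% were lower without overlap, and no such share was computed over pairs of genes. With quantile normalization again the Cfl1 minus Cfl2 shift was -0.096 (exact permutation p = 0.4). Cap1 minus Cap2 overlapped between the groups with a shift of 0.07 (exact permutation p = 0.4, adjusted 0.5), and Tmsb10 minus Tmsb4x overlapped with a shift of 0.11 (exact permutation p = 1, adjusted 1). Without Akita replicate 1 that last shift was -0.10, and without wild type replicate 3 it was -0.055.

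**Figure D3:**
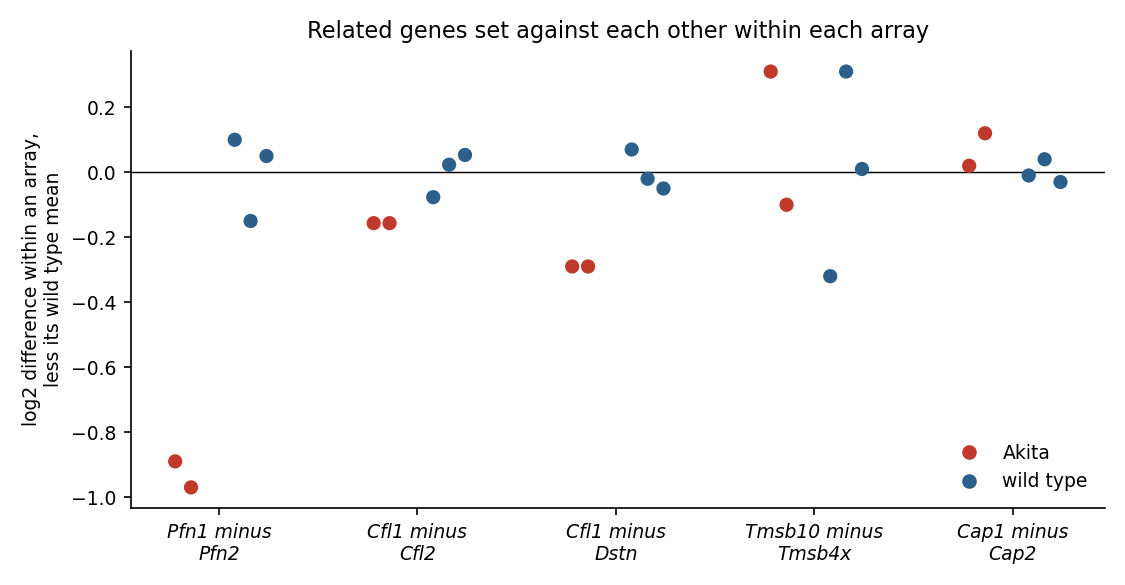
Log2 difference between 2 related genes within each array, less the wild type mean of that difference, with Akita arrays in red left of wild type arrays in blue. The Akita points lie below all wild type points for Pfn1 minus Pfn2 (shift -0.93), Cfl1 minus Cfl2 (-0.16) and Cfl1 minus Dstn (-0.29), and overlap them in the other pairs.

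Some members ran close to each other over the arrays. With each gene centred on its own mean, the root mean square difference between 2 genes over the 5 arrays was smallest, of 45 pairs, for Cap1 and Cap2 at 0.0519 log2 units. Cfl2 and Twf1 followed at 0.0578, Dstn and Twf1 at 0.0585, and Pfn2 and Cfl1 at 0.0588. Pfn1 stood furthest from the others, at 0.417 from Cap2 and up to 0.601 from Dstn, which restates its fall. These points share the 5 arrays and whatever differs between them.

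The 6 named genes that most resembled Pfn1 over the arrays were in none of the actin pathway lists. No tested gene of the 6 lists fell as far as Pfn1, the lowest being Acta1 at -0.57, so their absence adds nothing. The other 15527 genes tested were ranked by the same root mean square difference. Members and symbols of predicted, small RNA or receptor genes were then passed over. The nearest of the rest were Cuta (0.0301), Higd2a (0.0531), Trmt112 (0.0729), Nudt22 (0.0784), Dnajc30 (0.0823) and Bod1 (0.0830). Higd2a is a gene of cytochrome oxidase assembly, Trmt112 encodes the partner subunit of several methyltransferases, Dnajc30 a mitochondrial J-domain protein, and Bod1 a protein of chromosome attachment. Cuta, the nearest, measured 8.46 and 8.43 in Akita against 9.45, 9.24 and 9.35 in wild type. These 6 genes differed by -1.03 to -0.90, and 5 of them passed (limma adjusted p of 0.0265 to 0.0412), Dnajc30 being the exception at 0.0747. Likeness was chosen on these same arrays, so the shared fall is no added evidence. With each array left out in turn, no adjusted p of these 6 genes passed, and the mean of both Bod1 probe sets differed by -0.43 (adjusted p = 0.185).

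**Figure D4:**
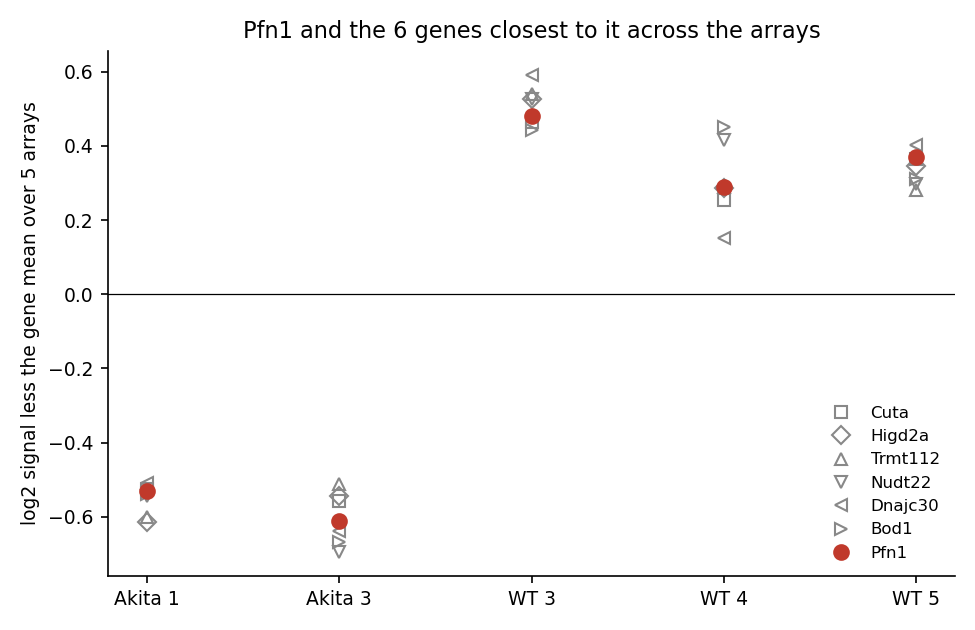
Log2 signal of Pfn1 (filled red) and its 6 nearest genes (open grey symbols) on each array, less the mean of the gene over the 5 arrays. Members and symbols of predicted, small RNA or receptor genes were passed over in choosing the 6. All 7 genes lie below 0 on both Akita arrays and above 0 on the 3 wild type arrays.

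Most of these genes are short in the genome. Their spans in the RefSeq table of GRCm38.p6 were 1.91 kb for Cuta, 0.917 kb for Higd2a, 1.33 kb for Trmt112, 3.09 kb for Nudt22, 1.16 kb for Dnajc30 and 6.71 kb for Bod1, beside 4.96 kb for Pfn1 and a median of 20.3 kb over all genes tested. A difference as low as that of Pfn1 was found in 0.681% of the 2642 genes spanning under 5 kb, against 0.0598% of the 5018 genes of 5 to 20 kb and 0.0257% of the 7771 longer genes. The first share counts Pfn1 itself. The median differences of the 3 classes, in this order, were -0.0067, -0.047 and -0.03. The 18 genes called lower, Pfn1 included, had a median span of 3.4 kb. Of the other members under 5 kb, Cfl1 spans 3.58 kb and differed by -0.03. Cfl2 spans 4.06 kb and differed by 0.13, and Tmsb10 spans 1.40 kb and differed by 0.06. Cap2 has the longest span, 148 kb. The part of gene span in the Pfn1 value was not tested. Among the 572 genes whose mean log2 signal lay within 0.5 of that of Pfn1 (9.88), a band set after the values were seen, the median difference was -0.025 and 2 genes were as low as Pfn1, itself included.

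The wider actin pathway was read from 6 lists of 89 genes, of which 74 were tested. By limma 0 of the 74 passed an adjusted p of 0.05, where 0.328% of all genes did, and the smallest adjusted p was 0.140. Unadjusted, 6 lay lower and 3 higher at p under 0.05, where 9.49% and 4.13% of all genes did. The groups did not overlap in 20 genes that lay lower and 7 that lay higher, where 19.9% and 9.89% of all genes tested were lower and higher without overlap. The median difference was -0.03, as over all genes. The scaling decides the side of 0 on which most list medians fall: with the arrays centred on the tested genes, the medians of all lists but the actin isoforms were above 0, and with centring on all probe sets every list median was below 0.

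Other monomer binders and disassembly factors had 9 of 14 tested genes lower, 0 called, and a median of -0.08. Twf2, the second twinfilin gene, differed by -0.09 (adjusted p = 0.757), and Pfn4, a profilin known from the testis, by -0.29 (0.598). Of the coronins, which bind filaments and work with cofilin, Coro6 differed by -0.43 (adjusted p = 0.303), Coro7 by -0.27 (0.332) and Coro1a, the form of blood cells, by 0.33 (0.400). Without Akita replicate 1 Coro6 differed by -0.24.

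Genes that control cofilin by phosphorylation had 6 of 10 tested genes lower, 0 called and a median of -0.06. The LIM kinases Limk1 and Limk2, which switch cofilin off, differed by -0.07 (adjusted p = 0.858) and -0.18 (0.630), and of the slingshot phosphatases that switch it on Ssh1 differed by 0.07 (0.851) and Ssh3 by -0.18 (0.549). Pak2 and Rock1, kinases upstream of the LIM kinases, differed by 0.23 (0.531) and 0.17 (0.539). Pak2 differed by 0.40 without Akita replicate 1 and by 0.05 without Akita replicate 3.

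Formins and Ena/VASP proteins, which draw on profilin-bound actin to lengthen filaments, split evenly with 7 of 14 tested genes lower, 0 called and a median of 0.00 (-0.0025). Inf2 differed by -0.39 (SE 0.17, adjusted p = 0.373), Fhod1 by -0.18 (0.592) and Daam1 by -0.11 (0.696). Without Akita replicate 1 Inf2 differed by -0.16 and Daam1 by -0.04, without Akita replicate 3 by -0.61 and -0.18, and without wild type replicate 5 Fhod1 by -0.085. Vasp, Enah and Evl differed by -0.03, -0.02 and -0.02.

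The Arp2/3 complex, which nucleates branches, and its activators had 4 of 12 tested genes lower, 0 called and a median of 0.05. The 3 genes of smallest p, all subunits, differed in sign: Arpc5l differed by -0.42 (adjusted p = 0.230) and Arpc4 by -0.36 (0.285), while Arpc2 differed by 0.27 (0.322). In all 3 the groups did not overlap. In the whole list 3 genes lay lower and 4 higher without overlap, where 19.9% and 9.89% of all genes tested did. Arpc4 measured 8.0 and 8.23 in Akita against 8.55, 8.48 and 8.40 in wild type. Arpc2 measured 10.78 and 10.76 in Akita against 10.47, 10.48 and 10.54 in wild type.

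Capping and severing proteins had 9 of 18 tested genes lower, 0 called and a median of -0.01. Capg, a capping protein of macrophages, differed by -0.42 (adjusted p = 0.291), Flii by -0.27 (0.393) and Eps8, a capping and bundling protein, by 0.50 (0.300). Eps8 differed by 0.80 without Akita replicate 1 and by 0.20 without Akita replicate 3, and Flii by -0.15 without Akita replicate 1. Among actin isoforms 5 of 6 lay lower, 3 of 6 with centring on the tested genes, with 0 called and a median of -0.11. Acta1, skeletal actin, measured 9.52 and 9.78 in Akita against 10.28, 10.19 and 10.19 in wild type. It differed by -0.57 on the log2 scale (SE 0.12, adjusted p = 0.140, or 0.0221 with an intensity trend and robust prior). Actb and Actg1, the actins of non-muscle cells, differed by -0.08 (0.785) and 0.09 (0.783).

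Serum response factor and its partners, the MRTFs and myocardin, switch on many actin genes, and the MRTFs are themselves held inactive by free actin monomers. Myocd, the myocardin gene, measured 8.91 and 9.37 in Akita against 9.71, 9.77 and 9.71 in wild type. It differed by -0.59 on the log2 scale (SE 0.15, adjusted p = 0.192). Mrtfa differed by -0.49 (SE 0.15, adjusted p = 0.234) and Srf by -0.31 (SE 0.11, 0.307), and none passed. In each of the 3 the groups did not overlap, where 19.9% of all genes tested were lower without overlap. Without Akita replicate 1 Myocd differed by -0.36 and Mrtfa by -0.32. Mrtfb differed by -0.05 (adjusted p = 0.889), and its groups overlapped.

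**Figure D5:**
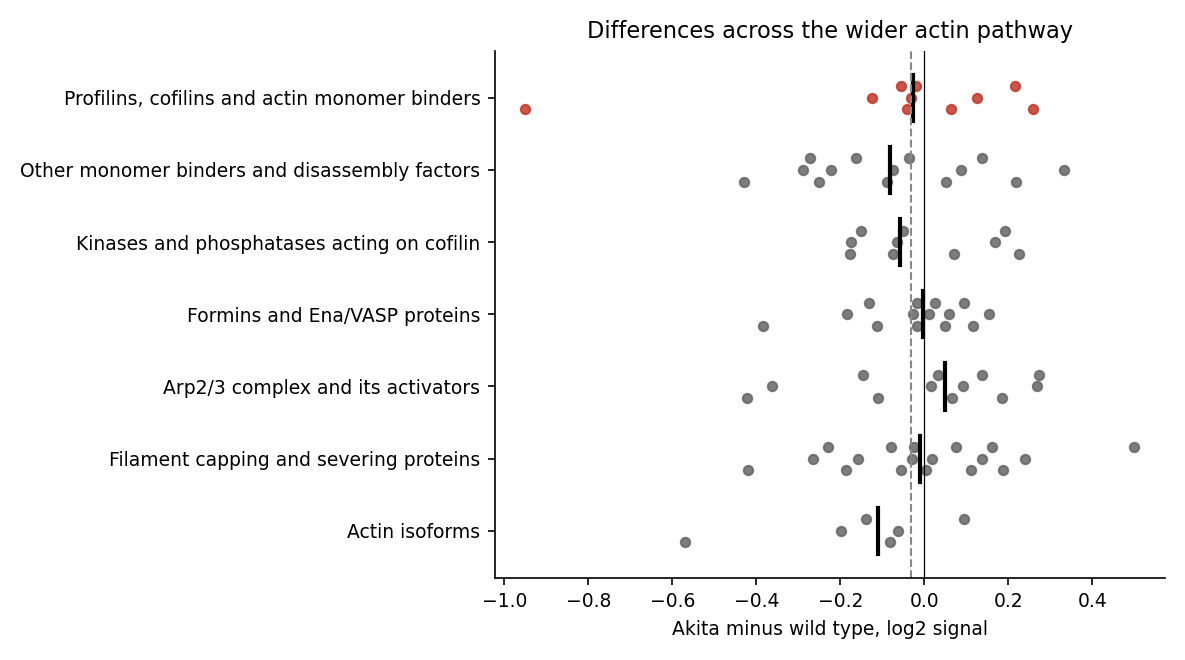
Akita minus wild type difference in log2 signal for each tested gene of the 10 members (red, top row) and of 6 further actin pathway lists (grey). Black bars are list medians, which run from -0.11 to 0.05, and the dashed line is the median of all genes tested at -0.03.

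Levels of cell type markers were compared because several members are abundant outside muscle. As sums of linear signal, macrophage markers (9 of 9 genes on the array) stood at 1822 to 2074 in Akita and 2110 to 2262 in wild type hearts. Of these 9 genes, 7 lay lower and 2 higher in Akita. The cardiomyocyte sums given above were also lower in both Akita arrays than in any wild type array. Cardiac fibroblast markers (8 of 8) stood at 5955 to 7645 in Akita and 5413 to 5656 in wild type, white adipocyte markers (7 of 8) at 4042 to 4145 and 3082 to 3417, and epicardial markers (8 of 8) at 369 to 537 and 349 to 355. Atrial myocyte markers (6 of 6) stood at 5265 and 16551 in the Akita hearts, against 4447 to 4784 in wild type, the higher value in replicate 3. Taken gene by gene, the median log2 difference of these markers from the wild type mean was -0.17 in Akita replicate 1 and 2.36 in replicate 3. Only replicate 3 was higher by that measure. The same median in replicates 1 and 3 was 0.06 and 0.59 for fibroblast markers and 0.08 and 0.42 for epicardial markers. For the tested adipocyte markers it was 0.34 and 0.57. In Akita 7 fibroblast markers lay higher and 1 lower, and 5 epicardial markers higher and 3 lower. All 5 tested adipocyte markers lay higher. Platelet markers (6 of 8) stood at 314 to 336 in Akita and 299 to 313 in wild type. Of these 6 genes, 4 lay higher and 2 lower in Akita. The sums overlapped for endothelium (9 of 9; 5337 to 5946 in Akita, 4894 to 5417 in wild type), for smooth muscle and pericytes (8 of 8; 4982 to 5802 and 5152 to 5319), for lymphocytes (7 of 9; 117 to 123 and 114 to 135) and for neutrophils (7 of 7; 95 to 108 and 103 to 108). Slc4a1, the 1 of 8 erythroid markers on the array, stood at 42 to 51 in Akita and 33 to 44 in wild type. The neutrophil genes S100a8, S100a9, Ly6g, Retnlg and Mmp8, the lymphocyte genes Cd3g, Cd8a and Ms4a1, and the adipocyte genes Adipoq and Lep lay under the filter on dim signals. The part of any of these cell types in the values of the members was not tested.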

How the data were processed

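Heart RNA of 2 Akita and 3 wild type samples was measured on whole-transcript arrays. The authors deposited log2 signals, 1 per probe set and array (1.27 to 13.66, 2 decimals); Affymetrix Expression Console produced them, per the submitters' processing notes. For its version, the summarisation and any normalization between arrays the sources used here give nothing, and the log base was read from the value range. Normalization between arrays would hide a change common to most genes.

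Of 41345 probe sets, 23521 had exactly 1 gene symbol in the platform annotation, 1814 several, and 16010 were unnamed here. Each of 22180 genes was represented by its brightest probe set, and the dimmest genes, those below the 30th percentile by mean signal, were left out. Groups and replicate numbers came from the sample titles. Akita minus wild type was fitted with limma 3.58.1 in R 4.3.3 (lmFit, eBayes, two-sided; 3 residual and 4.38 prior degrees of freedom) and adjusted by Benjamini-Hochberg over all genes at 0.05. The number of arrays limits the precision. Isoform pairs were compared by exact permutation with scipy 1.17.1; figures used matplotlib 3.10.9. The fit was tested on simulated data.

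Alternatives were other filters (none, or the 50th percentile), averaged probe sets, a second quantile normalization, 2 centrings, other variance priors, array weights, a threshold of 0.1 and each array left out; centring on the tested genes was added after seeing the data. Named were all members, up to 3 genes of smallest p per pathway list and the 6 genes nearest to Pfn1, without symbols of predicted, small RNA or receptor genes; Twf2, Pfn4, Limk1, Limk2, Ssh1, Vasp, Enah, Evl, Actb, Actg1 and Mrtfb were named for their roles after values were seen. The marker lists are given by their sums. From 1 further pathway list, Srf, Mrtfa, Mrtfb and Myocd are given as single genes, and its counts are not reported here. The members and lists were chosen with earlier results of these data known. Promoter sequences are RefSeq's, build GRCm38.p6, and all 10 members matched by symbol; the array values come with no named build.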

Additional observations from a re-analysis of the deposited data

How the results depend on the processing

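The number of genes called, 51 (33 higher, 18 lower), became 86 (68 higher, 18 lower) with no filter on dim genes, 48 (20 higher, 28 lower) with the 50th percentile filter, 32 with quantile normalization again, 84 (41 higher, 43 lower) or 30 (25 higher, 5 lower) with the arrays centred on all probe sets or on the tested genes, 197 (60 higher, 137 lower) with an intensity trend and robust prior, 0 with an unmoderated model (2116 genes had an unadjusted limma p under 0.05), 28 with array weights, 96 (49 higher, 47 lower) at a threshold of 0.1, and 9 to 44 with each array left out (44 and 11 in the absence of Akita replicate 1 or 3, and 9, 14 and 21 in that of wild type replicate 3, 4 or 5). Centring moved the median of all genes from -0.03 to -0.12 or 0.06. The number of members called, 1, became 0 with the tested genes as the centre, with an unmoderated model, with array weights and without any 1 array (0 to 0). Pfn1 differed by -0.86, -0.95 and -0.94 in those 3 settings and by -0.995 to -0.90 with each array left out, and stayed called in the other alternatives. In the pathway lists 1 gene, Acta1, was called with the intensity trend.

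Members near 0 changed sign. With quantile normalization again Pfn2 differed by 0.090, Cfl1 by 0.045 and Tmsb4x by 0.041; with centring on the tested genes Pfn2 differed by 0.074, Cfl1 by 0.0625, Tmsb4x by 0.0525 and Cap1 by 0.039; with centring on all probe sets Tmsb10 differed by -0.022. With each array left out Pfn2 ran from -0.05 to 0.01, Cfl1 from -0.077 to 0.013, Tmsb10 from -0.13 to 0.25, Cap1 from -0.22 to 0.11 and the Tmsb10 minus Tmsb4x shift from -0.10 to 0.31. Dstn and Twf1 lay higher and Cap2 lower under every alternative run, though Cap2 ran from -0.24 to -0.01 with each array left out, and none of the 3 was called in any. The cause of these changes was not tested. No member had a further single-symbol probe set, so that alternative gave no value. No paired analysis was possible because only replicate number 3 occurs in both groups. With Akita replicate 1 or 3 left out, the remaining Akita array was assumed to vary like the wild type arrays.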

Other observations

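A probe set annotated to both Twf1 and Gm4887 was left out of the comparison because it carries 2 symbols. It read 7.95 and 8.49 in Akita replicates 1 and 3, against 8.12, 8.01 and 7.95 in wild type replicates 3, 4 and 5. Its mean difference of 0.19 was close to the 0.22 of the Twf1 probe set, but here the groups overlapped and the 2 Akita arrays lay further apart than the wild type arrays.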
